A study of Mus musculus with 35 samples.

Results

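The mitochondrial ribosomal protein genes were followed in cultured bone marrow-derived macrophages (BMDMs) across 6 treatments and 2 genotypes. Members were the genes whose symbol is Mrpl or Mrps, then a number and at most 1 further letter, with a mean of at least 1 FPKM (fragments per kilobase of exon, scaled to the mapped total) over all 35 libraries. This gave 77 of the 78 genes with such a symbol and 77 of 47069 Ensembl identifiers. By name, 48 belong to the large subunit (Mrpl) and 29 to the small subunit (Mrps). The gene left out was Mrpl53, which was listed at 0 in every library and shares 88.0% of its exon bases with Gm42688 and Ccdc142os.

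The cells came from C57BL/6 mice labelled WT or AMPKa1-/-, were grown in L929-conditioned medium, and were treated for 24 h. The 6 treatments were vehicle (DMSO), Dex (dexamethasone, a synthetic glucocorticoid, 100 nM), LPS (lipopolysaccharide of bacterial outer membranes, 100 ng/ml), LPS + Dex, DAMPs (1 µg/ml, with the molecules behind this name not given in the sources used here) and DAMPs + Dex. Each of the 12 groups had 3 libraries except WT with LPS, which had 2 (replicates 2 and 3), so that 17 libraries were WT and 18 were labelled AMPKa1-/-. Nothing in the labels says how the AMPKa1 allele was made or whether the cultures of 1 number came from 1 mouse. P-values therefore measure the spread between these libraries.

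Mitochondria carry their own ribosome, which translates the few messages encoded in mitochondrial DNA, all of them subunits of the respiratory chain and ATP synthase. The RNAs of this mitoribosome are transcribed from mitochondrial DNA, whereas every one of its proteins is encoded in the nucleus, translated in the cytosol and imported. The large subunit holds the centre that joins amino acids, and the small subunit decodes the message. In macrophages, LPS is known to move metabolism from respiration towards glycolysis.

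Gene totals rebuilt from the steps of the FPKM values lay between 15837203 and 31955298 fragments per library. In 2 of the comparisons below the groups did not overlap in this total. WT libraries had 21260398 and more with LPS and at most 19973568 with vehicle, and with Dex labelled AMPKa1-/- had 19817989 and more and WT at most 18899907. The part of depth in these comparisons was not tested. Prkaa1, which encodes AMPKα1, was not called lower in the libraries labelled AMPKa1-/- under any treatment compared. In vehicle it measured 15.9, 11.8 and 15.3 FPKM in WT and 14.8, 16.5 and 15.4 FPKM in the labelled AMPKa1-/- libraries (log2 fold change 0.12, SE 0.23, adjusted p = 1 by limma with Benjamini-Hochberg adjustment). The ratio of the mean in labelled AMPKa1-/- to that in WT was 1.08 with vehicle, 0.797 with LPS, 0.819 with LPS + Dex and 0.818 with Dex, and the genotypes overlapped in each. A gene-level value cannot show whether part of the transcript was deleted, so the genotype is given below as labelled. The cells carried macrophage markers in every library, with Lyz2 between 10344 and 35906 FPKM and Adgre1 between 474 and 2751 FPKM. The neutrophil markers Mpo, Elane and Ly6g reached at most 0.475 FPKM in any library, while Ngp reached 7.56 and Camp 133 FPKM. The summed level was at most 0.385 FPKM for 4 T cell markers, 3.19 for 4 B cell markers, 1.69 for 3 dendritic cell markers and 0.927 for 4 mast cell or basophil markers. For 4 fibroblast or stroma markers it was between 1.16 and 24.4 FPKM, with 18.2, 1.40 and 9.61 in WT vehicle and 1.16, 2.75 and 1.38 in labelled AMPKa1-/- vehicle. In bulk RNA, a change in the mix of cells and a change per cell cannot be told apart.

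Levels differed widely between members. Mean FPKM over all libraries ran from 5.34 (Mrps22) to 177 (Mrps21), with a median of 28.9 for large and 19.1 for small subunit genes, against 14.8 for the 11354 genes tested. The most abundant members were Mrps21 (177 FPKM), Mrpl52 (167 FPKM) and Mrpl23 (98.6 FPKM), and the least abundant were Mrps22 (5.34 FPKM), Mrps27 (5.68 FPKM) and Mrpl47 (6.21 FPKM). Of the 77 members, 32 share exon bases with another gene and 9 share over 20% of them. Among these are Mrps34 (77.8%), Mrps25 (69.8%), Mrpl43 (33.4%, with Twnk, the mitochondrial DNA helicase, on the opposite strand) and Mrps18b (30.5%). The setting of strand in the authors' counting is not given in the sources used here, so fragments from these stretches cannot be assigned with certainty. The pseudogenes Mrpl23-ps1 (mean 1.70 FPKM) and Mrpl48-ps (mean 1.84 FPKM) were listed as well, and fragments shared with such near-copies cannot be assigned with certainty.

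The promoters of these genes were read from RefSeq (GRCm38.p6), from 250 bases before the start of transcription to 50 bases after it. An entry was found for 68 of the 77 members (42 large, 26 small), and the first was used where a gene had several. Words of 3 factors known to act on nuclear genes for mitochondrial proteins were searched on both strands: CCGGAAG for the ETS family, to which GABPA belongs, GCGCATG for NRF1 and AAGATGG for YY1. The ETS word stood in 24 of the 68 promoters (35.3%) and in 9.12% of 27025 mouse promoters of the same length. The NRF1 word stood in 8 of 68 (11.8%, against 4.04%) and the YY1 word in 13 of 68 (19.1%, against 6.48%). No member promoter held the ETS and YY1 words joined through their shared AAG, which 4 of all promoters did. A match describes the letters in this window only. The promoters printed here belong to the 2 members with the largest rises with LPS, and to those with the largest fall and the largest rise with Dex on LPS, with matched words in capitals. They are Mrpl52 (chr14:54426659-54426958, plus strand), Mrps10 (chr17:47368947-47369246, plus strand), Mrpl30 (chr1:37890227-37890526, plus strand) and Mrpl45 (chr11:97315466-97315765, plus strand). The Mrpl52 promoter holds the ETS word in 2 places, read as CTTCCGG on this strand, and the YY1 word in 1, whereas the other 3 hold none of the 3 words. The start that RefSeq gives for Mrps10 lies 310 bases inside the gene as GENCODE places it, so that its window begins 60 bases inside and leaves out what precedes the gene. The same held for 12 of the 68 windows in all.
Mrpl52: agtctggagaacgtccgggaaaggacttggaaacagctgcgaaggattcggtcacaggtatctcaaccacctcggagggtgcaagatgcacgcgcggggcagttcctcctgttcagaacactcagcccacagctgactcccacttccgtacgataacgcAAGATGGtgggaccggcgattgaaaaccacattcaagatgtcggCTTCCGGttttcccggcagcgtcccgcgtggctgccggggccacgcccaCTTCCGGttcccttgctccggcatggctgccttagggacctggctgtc
Mrps10: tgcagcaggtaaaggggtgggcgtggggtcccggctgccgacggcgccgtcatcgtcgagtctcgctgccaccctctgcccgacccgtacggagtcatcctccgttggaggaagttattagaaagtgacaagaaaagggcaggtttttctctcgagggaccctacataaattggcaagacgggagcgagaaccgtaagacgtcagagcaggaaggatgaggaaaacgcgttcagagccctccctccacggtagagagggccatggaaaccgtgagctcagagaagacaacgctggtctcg
Mrpl30: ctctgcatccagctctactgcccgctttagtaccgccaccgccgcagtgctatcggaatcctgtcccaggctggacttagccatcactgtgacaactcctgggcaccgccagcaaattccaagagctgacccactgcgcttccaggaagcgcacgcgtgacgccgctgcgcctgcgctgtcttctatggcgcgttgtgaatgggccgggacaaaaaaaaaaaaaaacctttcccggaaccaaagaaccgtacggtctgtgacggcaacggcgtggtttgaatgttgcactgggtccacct
Mrpl45: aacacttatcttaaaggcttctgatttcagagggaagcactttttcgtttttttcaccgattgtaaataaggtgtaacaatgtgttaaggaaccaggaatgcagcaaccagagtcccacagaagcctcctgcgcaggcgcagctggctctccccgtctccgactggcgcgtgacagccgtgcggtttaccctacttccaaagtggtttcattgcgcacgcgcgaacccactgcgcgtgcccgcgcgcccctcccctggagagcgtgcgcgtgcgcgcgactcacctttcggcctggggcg

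To see how these genes responded to an inflammatory stimulus, LPS was compared with vehicle in each genotype with limma on log2(FPKM + 1), fitted over all 11354 genes with Benjamini-Hochberg adjustment and a threshold of 0.05. In WT, 24 of 77 members rose and 10 fell. Over all genes, 19.9% rose and 35.8% fell. For labelled AMPKa1-/- cells, 31 members rose and 7 fell, against 20.2% and 44.1% of all genes. The median member changed by 0.10 in WT and 0.23 in labelled AMPKa1-/- on the log2 scale, whereas the median of all genes was −0.19 and −0.30. These medians describe the list without a test of it.

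Both subunits had a median above 0, with more rises in the large one. Among large subunit genes, 20 of 48 rose and 6 fell in WT, and 23 rose and 4 fell in labelled AMPKa1-/-. Among small subunit genes, 4 of 29 rose and 4 fell in WT, and 8 rose and 3 fell in labelled AMPKa1-/-. The median large subunit gene changed by 0.17 and 0.31, and the median small subunit gene by 0.07 and 0.18, in WT and labelled AMPKa1-/- respectively. The difference of the medians, large minus small, was 0.09 in WT and 0.14 in labelled AMPKa1-/-. It was not tested, and leaving out single libraries moved it between 0.0363 (without LPS replicate 3) and 0.155 (without LPS replicate 2) in WT and between 0.0845 (without vehicle replicate 3) and 0.222 (without vehicle replicate 1) in labelled AMPKa1-/-. The genotypes have no library in common here. Of the 24 members raised in WT, 23 (95.8%) were among the 31 raised in labelled AMPKa1-/- (74.2% of these). The 7 that fell in labelled AMPKa1-/- were all among the 10 that fell in WT (70% of these). Over all genes, 87.0% of those raised in WT were raised in labelled AMPKa1-/- (85.6% of these). Of all genes that fell in labelled AMPKa1-/-, 76.6% fell in WT, and 94.2% of those that fell in WT fell in labelled AMPKa1-/-. No member was called in opposite directions.

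**Figure D1:**
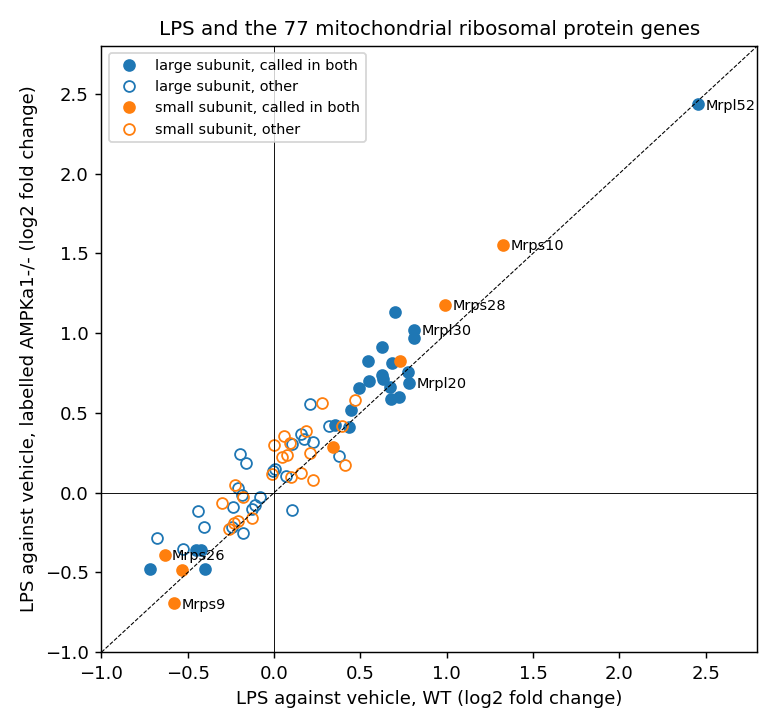
Change of the 77 mitochondrial ribosomal protein genes with LPS against vehicle in WT (x axis) and labelled AMPKa1-/- (y axis), both as log2 fold changes of FPKM + 1, with filled points called in both genotypes and the dashed line marking equal change. Mrpl52 stands at 2.46 and 2.44, followed by Mrps10 at 1.33 and 1.56, and Mrpl28 at −0.72 and −0.48 and Mrps9 at −0.58 and −0.69 stand among the lowest.

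Mrpl52, which encodes a large subunit protein with no bacterial counterpart, had the largest rise. Its locus is on chromosome 14 from 54426909 to 54429756 (GRCm38, plus strand). In WT it measured 85.05, 79.8 and 75.04 FPKM with vehicle and 455 and 433 FPKM with LPS. In the labelled AMPKa1-/- cells it measured 87.9, 74.9 and 76.1 FPKM with vehicle and 453, 428 and 420.5 FPKM with LPS. The groups were far apart in both genotypes, with ratios of mean FPKM of 5.55 and 5.45. The log2 fold change was 2.46 (SE 0.20, adjusted p = 2.18e-11) in WT and 2.44 (SE 0.18, adjusted p = 1.91e-12) in labelled AMPKa1-/-. No exon base of this gene is shared with another gene.

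The next 2 rises were in the small subunit. Mrps10, on chromosome 17 from 47368887 to 47381417, encodes the counterpart of a bacterial small subunit protein. It measured 19.6, 18.7 and 19.9 FPKM with vehicle and 49.8 and 50.6 FPKM with LPS in WT. Among labelled AMPKa1-/- libraries the values were 16.8, 16.6 and 18.5 FPKM and 56.8, 52.3 and 49.2 FPKM. The groups did not overlap, and the log2 fold change was 1.33 (SE 0.11, adjusted p = 2.22e-11) in WT and 1.56 (SE 0.10, adjusted p = 5.84e-14) in labelled AMPKa1-/-. Mrps28, on chromosome 3 from 8802146 to 8923918, went from 13.5, 16.2 and 14.3 FPKM to 28.4 and 31.7 FPKM in WT, a log2 fold change of 0.99 (SE 0.20, adjusted p = 1.43e-04). In labelled AMPKa1-/- it went from 12.03, 12.9 and 15.2 FPKM to 37.3, 32.04 and 25.8 FPKM, a log2 fold change of 1.18 (SE 0.18, adjusted p = 2.33e-06). These 3 genes kept their calls under every alternative tried. The remaining rises were smaller, from 0.34 to 0.81 in WT and from 0.28 to 1.13 in labelled AMPKa1-/-, and included Mrpl30 (0.81 and 1.02), Mrpl57 (0.81 and 0.97) and Mrpl38 (0.70 and 1.13), in that order of genotype.

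The falls were weaker. Mrpl28, the counterpart of a bacterial large subunit protein, went from 76.2, 105 and 81.6 FPKM to 50.1 and 54.9 FPKM in WT and from 85.5, 70.8 and 82.01 FPKM to 61.8, 56.99 and 50.97 FPKM in labelled AMPKa1-/-. The log2 fold change was −0.72 (SE 0.23, adjusted p = 0.00968) and −0.48 (SE 0.21, adjusted p = 0.0431). Mrps9, another protein of bacterial descent, went from 24.5, 28.4 and 23.4 to 16.7 and 16.6 FPKM in WT, a log2 fold change of −0.58 (SE 0.14, adjusted p = 7.57e-04). In the labelled AMPKa1-/- cells it went from 26.2, 23.7 and 21.9 to 14.1, 15.2 and 13.9 FPKM, a log2 fold change of −0.69 (SE 0.12, adjusted p = 1.85e-05). Mrps26, a small subunit protein, changed by −0.63 and −0.39, and Mrps35 by −0.53 and −0.48. The WT calls of Mrpl28 and Mrps26 were lost without LPS replicate 2, and that of Mrpl28 also without vehicle replicate 2. The call of Mrpl28 in labelled AMPKa1-/- was lost in 8 of 13 alternatives, among them those without vehicle replicate 1 or 3 and without LPS replicate 2 or 3. With the trend of each library on exon length removed, the calls of Mrps9 in both genotypes, of Mrps26 in WT and of Mrps35 and Mrpl28 in labelled AMPKa1-/- were lost. The falls also depended on scaling. With every library centred on 1 median, 25 members rose and 1 fell in WT and 44 rose and 1 fell in labelled AMPKa1-/-, and the median of all genes then moved to −0.04 and −0.02. Under that scaling 25.4% of all genes rose and 29.5% fell in WT, and 29.6% rose and 30.9% fell in labelled AMPKa1-/-. Summed FPKM of the 5 neutrophil markers was at most 9.21 with vehicle, of which Camp made up 2.25, and between 95.1 and 133 with LPS, where Camp alone was between 92.5 and 133. Its part in these results was not tested.

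To see what a glucocorticoid does to LPS-treated macrophages, LPS + Dex was compared with LPS. In WT, 16 members rose (9 large, 7 small) and 10 fell (7 large, 3 small), against 16.6% and 17.5% of all genes. Among labelled AMPKa1-/- libraries, 14 rose (9 large, 5 small) and 11 fell (8 large, 3 small), against 19.3% and 18.4% of all genes. The share that changed was thus near that of all genes in both directions. Median changes were 0.11 and 0.12 for large and small subunit genes in WT, and 0.02 and 0.08 in labelled AMPKa1-/-, with all genes at −0.03 and 0.01. The 2 genotypes shared 9 of the rises (56.2% of those in WT, 64.3% of those in labelled AMPKa1-/-) and 8 of the falls (80% and 72.7%). Over all genes, 84.0% and 72.5% of the rises and 82.9% and 78.7% of the falls were shared. In WT the result leaned on the 2 LPS libraries. In a fit of LPS and LPS + Dex alone, 3 members rose and 3 fell. The share of all genes called in that fit is not given here, so the drop cannot be read as particular to the members.

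Mrpl45, the large subunit protein that tethers the mitoribosome to the inner membrane, had the largest rise. It is on chromosome 11 from 97315716 to 97329920. In WT it measured 30.7 and 31.8 FPKM with LPS and 59.3, 68.2 and 70 FPKM with LPS + Dex. In labelled AMPKa1-/- it measured 44.6, 36.2 and 29.1 FPKM and 85.3, 83.3 and 81.3 FPKM. No library with LPS reached the level of any with LPS + Dex in either genotype. The log2 fold change was 1.05 (SE 0.18, adjusted p = 2.70e-05) in WT and 1.18 (SE 0.16, adjusted p = 6.13e-07) in labelled AMPKa1-/-. Without LPS, Dex gave 26.8, 18.7 and 22.1 FPKM in WT and 30.5, 38.3 and 29.2 FPKM in labelled AMPKa1-/-, against 21.4, 26.9 and 18.1 and 24.8, 23.6 and 19.5 FPKM with vehicle.

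Mrpl34, Mrpl12 and Mrps35 followed. Mrpl34, a large subunit protein of bacterial descent, went from 45.7 and 52.5 FPKM to 74.8, 88.3 and 107 FPKM in WT, a log2 fold change of 0.85 (SE 0.18, adjusted p = 5.06e-04). In the labelled AMPKa1-/- cells it went from 58.2, 54.8 and 51.6 FPKM to 83.2, 81.97 and 121 FPKM, a log2 fold change of 0.77 (SE 0.16, adjusted p = 4.05e-04). Mrpl12 belongs to the stalk of the large subunit, which binds translation factors. It went from 15.2 and 17.8 FPKM to 22.4, 29.1 and 32.9 FPKM in WT, a log2 fold change of 0.72 (SE 0.18, adjusted p = 0.00267), which lost its call without LPS replicate 2 and in a fit of these 2 groups alone. Among labelled AMPKa1-/- libraries it went from 22.1, 21.01 and 17.4 FPKM to 30.6, 32.4 and 34.05 FPKM, a log2 fold change of 0.66 (SE 0.16, adjusted p = 0.002). Mrps35, a small subunit protein that had fallen with LPS, stood at 4.82 and 4.57 FPKM with LPS and 8.73, 7.23 and 8.76 FPKM with LPS + Dex in WT, a log2 fold change of 0.69 (SE 0.13, adjusted p = 1.67e-04). In labelled AMPKa1-/- it stood at 4.98, 5.02 and 4.29 FPKM and 8.11, 7.30 and 9.29 FPKM, a log2 fold change of 0.68 (SE 0.12, adjusted p = 4.56e-05).

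Mrpl30, the counterpart of a bacterial large subunit protein, had the largest fall. It is on chromosome 1 from 37890477 to 37898535. In WT it measured 110.3 and 129 FPKM with LPS and 52.6, 59.5 and 76.3 FPKM with LPS + Dex. In the labelled AMPKa1-/- cells it measured 173, 111 and 119 FPKM and 67.1, 58.1 and 64 FPKM. The LPS + Dex libraries lay below every LPS library and near vehicle (63.97, 84.1 and 57.04 FPKM in WT). The log2 fold change was −0.93 (SE 0.18, adjusted p = 1.85e-04) in WT and −1.05 (SE 0.16, adjusted p = 6.76e-06) in labelled AMPKa1-/-. Mrpl52 measured 228, 243 and 365 FPKM with LPS + Dex in WT and 256, 257 and 353 FPKM in labelled AMPKa1-/-. These libraries lay below those with LPS and above every vehicle library. The log2 fold change from LPS was −0.70 (SE 0.20, adjusted p = 0.00617) and −0.60 (SE 0.18, adjusted p = 0.00729), and the WT call was lost without LPS replicate 2, when libraries were centred on 1 median and in a fit of these 2 groups alone. Mrps10 changed by −0.45 (SE 0.11, adjusted p = 0.00153) and −0.49 (SE 0.10, adjusted p = 1.31e-04). Mrpl54 (−0.57 and −0.71) and Mrpl13 (−0.64 and −0.62) fell in both genotypes, the call of Mrpl54 in labelled AMPKa1-/- being lost under quantile normalization, and Mrps28 did not pass the test in either (log2 fold change 0.02, SE 0.20, adjusted p = 0.954, and log2 fold change −0.06, SE 0.18, adjusted p = 0.848).

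**Figure D2:**
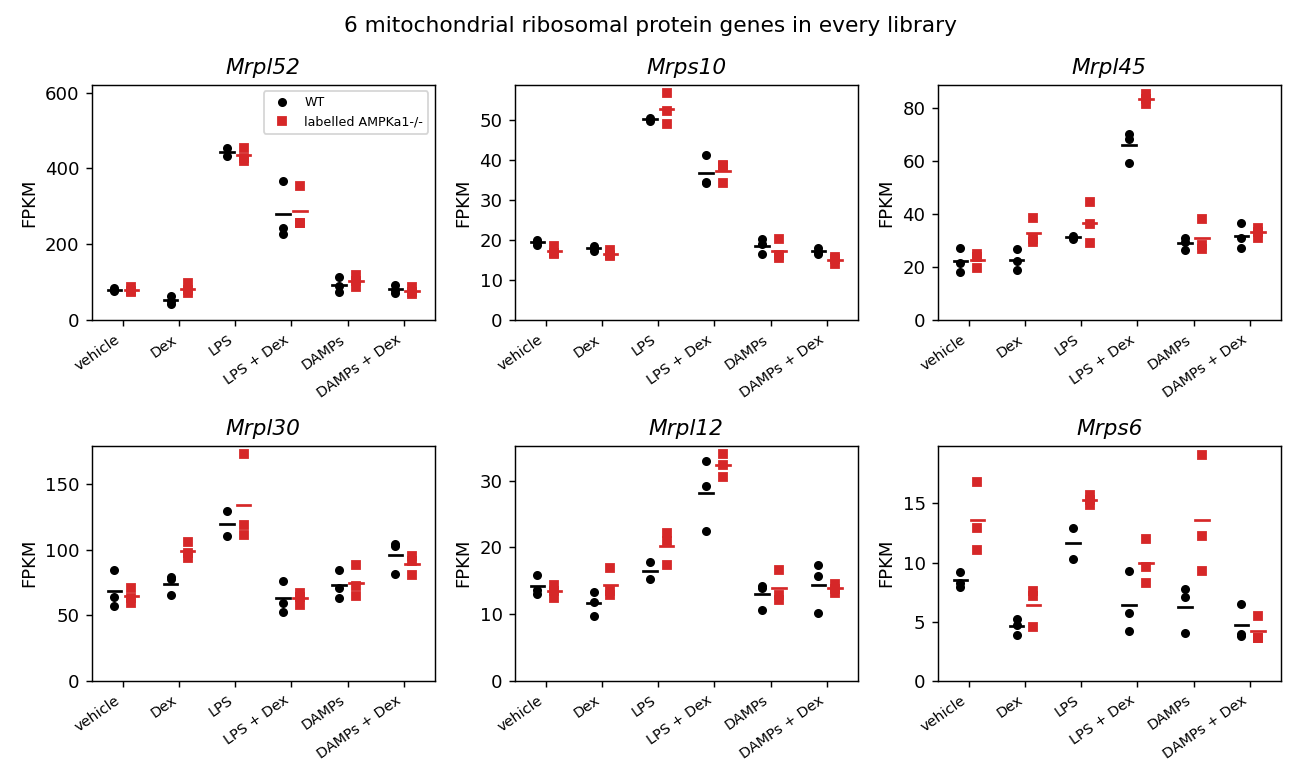
FPKM of 6 mitochondrial ribosomal protein genes in each library by treatment, with black circles for WT, red squares for labelled AMPKa1-/- and bars for group means. Mrpl52 and Mrps10 were highest with LPS, Mrpl45 and Mrpl12 with LPS + Dex, and Mrpl30 was lower with LPS + Dex than with LPS in each genotype.

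The direction of a member under LPS and under Dex on LPS was set side by side between the genotypes, so that no library was used for both. Of the 24 members that rose with LPS in WT, 9 fell and 2 rose with LPS + Dex against LPS in labelled AMPKa1-/-. Over all genes that rose with LPS in WT, 54.4% fell and 8.99% rose, against 37.5% and 8.33% of these members. Of the 10 that fell in WT, 5 rose and none fell, against 34.02% and 6.54% over all genes. In the other pairing, of the 31 members that rose with LPS in labelled AMPKa1-/-, 9 fell and 4 rose with LPS + Dex against LPS in WT, and of the 7 that fell, 2 rose and none fell. The shares over all genes were 47.6% and 9.41% of those that rose, and 25.5% and 6.49% of those that fell. The 8 genes common to both pairings among those raised by LPS and lowered by Dex were Mrpl13, Mrpl17, Mrpl30, Mrpl32, Mrpl39, Mrpl52, Mrpl54 and Mrps10. Mrpl45 was the member raised in both steps in each pairing.

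Against vehicle, LPS + Dex left 26 members higher and 1 lower in WT, against 17.2% and 37% of all genes, and 30 higher and 2 lower in labelled AMPKa1-/-, against 16.7% and 40.8%. With libraries centred on 1 median, 36 and 45 members rose and none fell, where 25.5% of all genes rose and 25.1% fell in WT and 27.0% rose and 26.0% fell in labelled AMPKa1-/-. Of the rises, 24 were shared (92.3% of those in WT, 80% of those in labelled AMPKa1-/-), against 85.9% and 88.6% over all genes. Mrpl52 (1.76 and 1.83) and Mrpl45 (1.54 and 1.84) led in both genotypes. Mrpl20, of the large subunit, stood at 56.3, 49.8 and 59.6 FPKM with vehicle and 112, 130.2 and 159.9 FPKM with LPS + Dex in WT, a log2 fold change of 1.25 (SE 0.15, adjusted p = 4.66e-08). Among labelled AMPKa1-/- libraries its change was 1.04 (SE 0.15, adjusted p = 9.60e-07). Mrpl38, of the large subunit, changed by 0.87 (SE 0.16, adjusted p = 3.54e-05) in WT and 1.33 (SE 0.16, adjusted p = 4.13e-08) in labelled AMPKa1-/-. Mrpl9 was the gene that fell in both (−0.46 and −0.40), a call that was lost in both genotypes with centring and with quantile normalization, and in labelled AMPKa1-/- also with the length trend of each library removed. Mrpl48 fell in labelled AMPKa1-/- (log2 fold change −0.33, SE 0.13, adjusted p = 0.0319), a call that was lost with no filter on low values, when libraries were centred on 1 median, under quantile normalization, and without any 1 of LPS + Dex replicates 1, 2 and 3 or vehicle replicates 1 and 2, and its sign turned with the length trend of each library removed. In these libraries Saa3, an acute-phase gene, alone took 16.0% to 24.0% of summed FPKM in WT and 16.5% to 21.5% in labelled AMPKa1-/-, against at most 0.0344% with vehicle. Its part in the levels of other genes was not tested.

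Summed over the members, FPKM was higher with LPS. The sum was 2439.7, 2715 and 2376 with vehicle, 3006 and 3287 with LPS and 2877, 3348 and 3803 with LPS + Dex in WT. In labelled AMPKa1-/- it was 2525, 2399 and 2476, 3701, 3282 and 3212 and 3384, 3118 and 3736. Every library with LPS or LPS + Dex was above every vehicle library. The FPKM sum over all genes was also above vehicle in each of these libraries. In WT it was 755541 to 939953, against 697175 to 739460 with vehicle. In labelled AMPKa1-/- it was 765142 to 904666, against 703665 to 722633. Its part in the gap of the members was not tested. In WT with LPS the gap in the sum of the members rested on Mrpl52. Without that gene the sum was 2355, 2635 and 2301 with vehicle and 2551 and 2854 with LPS in WT, and these groups overlapped. In labelled AMPKa1-/- it was 2437, 2324 and 2400.2 and 3248, 2854 and 2791, with no overlap. Mrpl52 made up 3.49, 2.94 and 3.16% of the sum with vehicle and 15.1 and 13.2% with LPS in WT, and 3.48, 3.12 and 3.07% and 12.3, 13.1 and 13.1% in labelled AMPKa1-/-. The ratio of summed large to summed small subunit FPKM was 1.98, 1.999 and 1.97 with vehicle and 2.41 and 2.46 with LPS in WT, and 2.04, 1.92 and 1.97 and 2.45, 2.32 and 2.54 in labelled AMPKa1-/-. Without Mrpl52 it was 1.87, 1.91 and 1.88 with vehicle and 1.90 and 2.002 with LPS in WT, and 1.93, 1.83 and 1.88 and 2.03, 1.89 and 2.08 in labelled AMPKa1-/-. The gap in the ratio was thus carried mostly by this 1 gene, and without it the LPS and vehicle libraries of both genotypes overlapped.

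**Figure D3:**
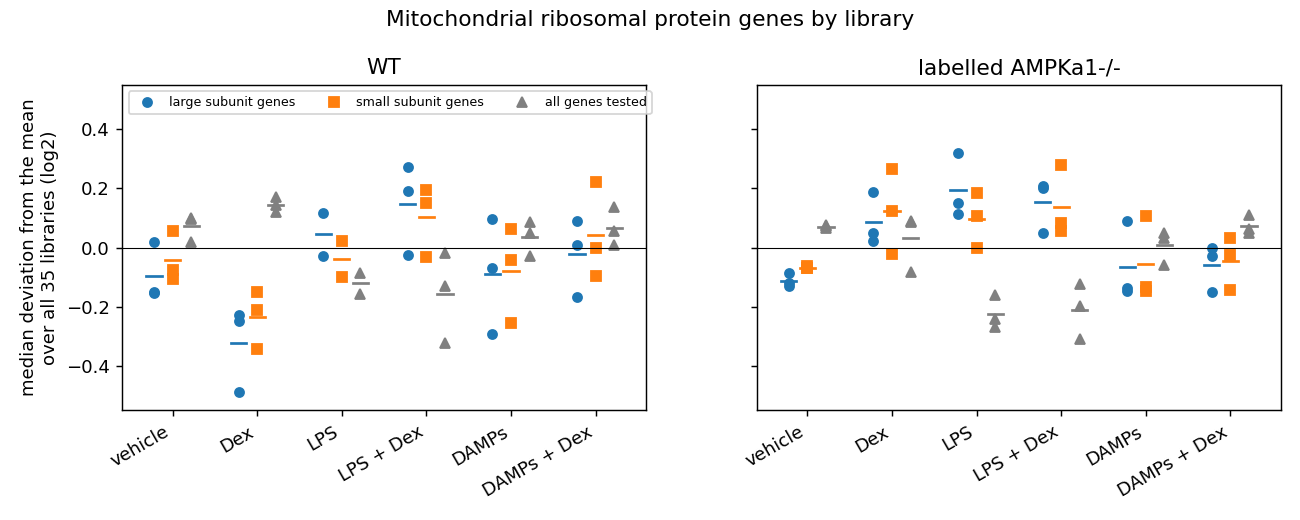
Median deviation of large subunit genes (blue circles), small subunit genes (orange squares) and all genes tested (grey triangles) from each gene's mean over the 35 libraries, in log2(FPKM + 1), with 1 point per library and bars for group means. Both subunits had their lowest group mean with Dex in WT (large subunit −0.49 to −0.23) and lay above all genes in each LPS and LPS + Dex group mean.

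Dex alone gave calls mostly in one direction in WT and mostly in the other in labelled AMPKa1-/-. In WT, 1 member rose and 15 fell, against 15.9% and 14.9% of all genes, with a median of −0.20 and all genes at 0.05. In the labelled AMPKa1-/- cells, 12 rose and 1 fell, against 11.9% and 16% of all genes, with a median of 0.19 and all genes at −0.05. In WT, 10 large (20.8%) and 5 small (17.2%) subunit genes were lower, and in labelled AMPKa1-/- 8 large (16.7%) and 4 small (13.8%) were higher, shares near those of all genes. Only 2 members were called the same way in both, Mrps9 higher and Mrps6 lower. Over all genes, 41.7% of the rises and 61.0% of the falls in WT were shared by labelled AMPKa1-/-. Without WT Dex replicate 2 the WT count dropped to 7, without WT vehicle replicate 1 to 10 and without WT vehicle replicate 2 to 8. The count in labelled AMPKa1-/- dropped to 8 without AMPKa1-/- Dex replicate 2. Shares of all genes without these libraries are not given here, so the drops cannot be read as particular to the members. In the direct test of the difference of the Dex effect between genotypes, no gene passed (0% of 11354 genes, limma). Of the 77 members, 74 had a positive difference, as did 4577 of the 11354 genes. At an unadjusted p under 0.05 stood 37 members and 2441 of all genes. The median difference was 0.39 over members and −0.10 over all genes. It followed exon length, with all genes at 0.28 for 1 to 2 kb and −0.36 over 5 kb. Members stood at 0.45 and 0.26 in these bins. The part of length was not tested.

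Among the falls in WT, Mrpl54, a large subunit protein found in mitochondria but not in bacteria, went from 40.7, 50.6 and 45.3 FPKM to 27.9, 20.9 and 27.99 FPKM with Dex, a log2 fold change of −0.81 (SE 0.19, adjusted p = 0.00205). Among labelled AMPKa1-/- libraries it was at 47.6, 43.1 and 42.4 FPKM and 47.3, 54.3 and 36.7 FPKM, and did not pass the test (log2 fold change 0.04, SE 0.19, adjusted p = 0.907). Mrps28 changed by −0.71 (SE 0.18, adjusted p = 0.00361) in WT and by −0.39 (SE 0.18, adjusted p = 0.114) in labelled AMPKa1-/-. Among the rises in labelled AMPKa1-/-, Mrps30 went from 5.63, 6.28 and 4.81 FPKM to 10.3, 10.6 and 9.21 FPKM, a log2 fold change of 0.76 (SE 0.14, adjusted p = 1.56e-04). In WT it stood at 5.81, 7.63 and 5.29 FPKM and 6.23, 6.21 and 7.42 FPKM (log2 fold change 0.08, SE 0.14, adjusted p = 0.684). Mrpl30, which fell with Dex on LPS, rose with Dex alone in labelled AMPKa1-/- (log2 fold change 0.61). It kept this call under every alternative tried, and was not called in WT. Mrps9 went from 24.5, 28.4 and 23.4 FPKM to 34.6, 32.5 and 33.3 FPKM in WT (log2 fold change 0.39, SE 0.12, adjusted p = 0.0177) and from 26.2, 23.7 and 21.9 FPKM to 36.9, 42.5 and 33.4 FPKM in labelled AMPKa1-/- (log2 fold change 0.63, SE 0.12, adjusted p = 2.76e-04). The WT rise of Mrps9 lost its call with centring, with quantile normalization, with the trend on exon length removed, and without Dex replicate 1, vehicle replicate 1 or vehicle replicate 3.

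Mrps6, a small subunit protein of bacterial descent on chromosome 16 from 92058270 to 92112227, fell with Dex in both genotypes. In WT it measured 8.29, 9.23 and 7.96 FPKM with vehicle and 4.70, 3.90 and 5.20 FPKM with Dex, a log2 fold change of −0.77 (SE 0.25, adjusted p = 0.0227). This call was lost without Dex replicate 2 or vehicle replicate 2. In labelled AMPKa1-/- it measured 11.1, 12.9 and 16.8 FPKM and 7.63, 7.13 and 4.50 FPKM, a log2 fold change of −0.98 (SE 0.25, adjusted p = 0.00411). On DAMPs, Dex took it from 19.1, 12.3 and 9.31 FPKM to 3.57, 3.59 and 5.48 FPKM in labelled AMPKa1-/- (log2 fold change −1.45, SE 0.25, adjusted p = 7.26e-05). In WT it went from 4.01, 7.04 and 7.73 FPKM to 3.97, 6.51 and 3.76 FPKM, and the groups overlapped (log2 fold change −0.33, SE 0.25, adjusted p = 0.397). On LPS, the change with Dex was −0.82 (SE 0.28, adjusted p = 0.0249) in WT and −0.59 (SE 0.25, adjusted p = 0.0697) in labelled AMPKa1-/-, and the WT call was lost in 8 of 12 alternatives. These were centring, quantile normalization, a fit of these 2 groups alone, the replicate number as a block (adjusted p = 0.0539 by limma), and leaving out LPS replicate 2 or 3 or LPS + Dex replicate 1 or 2. Mrps6 shares 19.9% of its exon bases with Slc5a3 and Gm49711, both on the same strand. Fragments from these bases cannot be assigned with certainty even with strand, and their part in the falls was not tested.

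A comparison of genotypes within Dex was added after the data had been seen. There, 40 members were higher in labelled AMPKa1-/- than in WT (29 large, 11 small) and none was lower, against 11% of all genes higher and 15.5% lower. With libraries centred on 1 median, 46 were higher and none lower, against 17.4% and 12.02% of all genes. The largest differences were in Mrpl14 (0.89), Mrpl54 (0.82) and Mrps12 (0.70), on the log2 scale. The count rested on few libraries. It fell to 2 without WT Dex replicate 2 and to 3 without AMPKa1-/- Dex replicate 2, and to 26 without WT Dex replicate 1. How many of all genes were called without these libraries is not given here. The change with Dex also followed exon length over all genes. The median change of genes with 1 to 2 kb of exon was −0.16 in WT and 0.11 in labelled AMPKa1-/-, and that of genes over 5 kb was 0.21 and −0.13. Members are shorter than most genes, with a median of 2533 exon bases against 4236.5 for all genes tested. With the trend on length removed from each library, a step also added later, 20 members were higher in labelled AMPKa1-/-, against 9.75% of all genes. With Dex against vehicle, 1 member then rose and 12 fell in WT, against 15.2% and 18.5% of all genes, and 10 rose and 2 fell in labelled AMPKa1-/-, against 14.5% and 17.1%. The shares that fell in WT and rose in labelled AMPKa1-/- were then near those of all genes. Summed FPKM of 4 fibroblast markers was 11.8, 14.9 and 24.4 in WT with Dex and 3.79, 4.45 and 2.96 in labelled AMPKa1-/- with Dex. The part of length and of these markers in the difference was not tested.

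**Figure D4:**
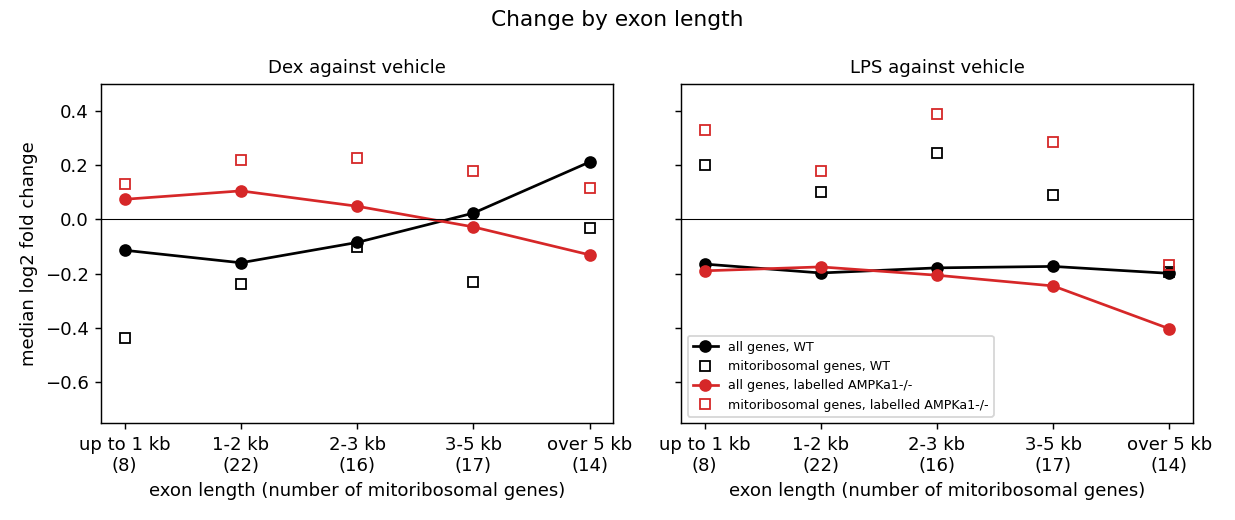
Median log2 fold change by exon length for all genes tested (filled circles, lines) and mitochondrial ribosomal protein genes (open squares) in WT (black) and labelled AMPKa1-/- (red), for Dex (left) and LPS (right) against vehicle, with the number of mitochondrial ribosomal protein genes in each bin under the axis. With Dex the lines of the genotypes cross, from −0.16 and 0.11 at 1 to 2 kb to 0.21 and −0.13 over 5 kb. With LPS the members lay above all genes in each bin in both genotypes. Over 5 kb the gap was small in WT (−0.194 against −0.198) and wider in labelled AMPKa1-/- (−0.168 against −0.402).

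DAMPs alone changed no member in either genotype by limma. Over all genes, 1.22% rose and 0.793% fell in WT, and 1.89% rose and 2.24% fell in labelled AMPKa1-/-. At an unadjusted p under 0.05, 3 members in WT and 2 in labelled AMPKa1-/- differed, as did 9.68% and 13.3% of all genes, and the medians were 0.00 and 0.02. Dex on DAMPs raised 4 members and lowered 2 in WT, against 11.7% and 12.6% of all genes, and raised 4 and lowered 2 in labelled AMPKa1-/-, against 13.1% and 12.2%. Mrps9 (0.40 and 0.50) and Mrpl43 (0.48 and 0.42) rose in both genotypes. Twnk, which shares exon bases with Mrpl43 on the opposite strand, rose as well (0.50 and 0.43), and without strand, reads of the shared bases cannot be told apart. Mrpl43, of the large subunit, stood at 32.3, 35.7 and 42.96 FPKM with DAMPs and 51.6, 60.9 and 44.2 FPKM with DAMPs + Dex in WT. The other calls were Mrps34 (0.52) and Mrpl9 (0.43) higher and Mrps28 (−0.56) and Mrps18b (−0.37) lower in WT, and Mrps35 (0.35) and Mrps31 (0.33) higher and Mrpl54 (−0.52) and Mrps6 (−1.45) lower in labelled AMPKa1-/-. The fall of Mrps6 in labelled AMPKa1-/- kept its call without each library in turn, as did the rise of Mrps9 there (lost with the length trend of each library removed), whereas every other of the 10 calls tested this way lost it without at least 1 library. In a fit of these 2 groups alone, 0 members in WT and 2 in labelled AMPKa1-/- were called, with the share of all genes not given here.

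With vehicle, LPS or LPS + Dex, no member passed limma's test between labelled AMPKa1-/- and WT, against 0.432%, 0.766% and 0.669% of all genes. At an unadjusted p under 0.05, 1, 2 and 5 members differed, as did 6.17%, 11.4% and 8.11% of all genes. The test of a difference between genotypes in the change with LPS, with Dex on LPS or with DAMPs passed for no gene (0% of all genes in each), with 0 members and 4.53%, 2.74% and 0.581% of all genes at an unadjusted p under 0.05.

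Of the members whose name and place differ, Mrps30 and Mrps18a are placed in the large subunit by structures of the mitoribosome. Mrps36, counted here as small by its name, is a subunit of the oxoglutarate dehydrogenase complex of the TCA cycle. Mrps18a measured 39.7 ± 7.47 (SD, n = 3) FPKM with vehicle and 41.9 ± 0.928 (SD, n = 2) with LPS in WT, and passed the test with LPS in neither genotype (log2 fold change 0.09, SE 0.18, adjusted p = 0.69, and log2 fold change 0.31, SE 0.16, adjusted p = 0.0895). Mrps30 did not pass it either (log2 fold change −0.13, SE 0.16, adjusted p = 0.512, and log2 fold change −0.16, SE 0.14, adjusted p = 0.33). Mrps36 went from 42.7 and 61.8 FPKM with LPS to 63.4, 82.1 and 83.2 FPKM with LPS + Dex in WT (log2 fold change 0.55, SE 0.19, adjusted p = 0.023) and from 51.3, 51.6 and 31.2 to 67.9, 55.1 and 68.6 FPKM in labelled AMPKa1-/- (log2 fold change 0.53, SE 0.17, adjusted p = 0.0122). A further 5 proteins of this ribosome carry other symbols. Of these, Dap3, a GTP-binding small subunit protein, and Chchd1 rose with LPS in WT (0.38 and 0.61) and labelled AMPKa1-/- (0.40 and 0.80), and none was called with Dex on LPS.

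For the genes that build and feed this ribosome, the counts with LPS are read beside the 19.9% of all genes that rose and 35.8% that fell in WT, and the 20.2% and 44.1% in labelled AMPKa1-/-. Their difference from the mitoribosomal genes was not tested. Of 24 tested assembly factors, 4 rose and 8 fell with LPS in WT, and 3 rose and 8 fell in labelled AMPKa1-/-. Rbfa, which helps mature the small subunit RNA, fell by 1.57 and 1.496 on the log2 scale, and Nsun4, a methyltransferase of the mitochondrial rRNA, rose by 1.06 and 1.04. With LPS + Dex against LPS, 6 rose and none fell in WT, and 5 rose and 1 fell in labelled AMPKa1-/- (16.6% and 19.3% of all genes rose, 17.5% and 18.4% fell), led by Noa1 (1.27 and 0.98), a GTPase of mitoribosome assembly. In labelled AMPKa1-/- the direction of the LPS counts depended on scaling. With libraries centred on 1 median, 7 rose and 3 fell there, while 5 rose and 6 fell in WT. With centring, 25.4% and 29.5% of all genes rose and fell in WT, and 29.6% and 30.9% in labelled AMPKa1-/-. Of 15 translation factors, 1 rose and 4 fell in WT and 2 rose and 7 fell in labelled AMPKa1-/- with LPS, with Oxa1l, which inserts the products into the inner membrane, at −1.17 and −1.10. With centring these became 2 higher and 2 lower, and 6 higher and 2 lower. Of 19 genes for mitochondrial aminoacyl-tRNA formation, 3 rose and 4 fell in WT and 2 rose and 6 fell in labelled AMPKa1-/-, which with centring became 6 and 4, and 6 and 3. Nars2, the synthetase for asparagine, rose with Dex on LPS in both genotypes (1.11 and 1.505) and with Dex alone (1.02 and 1.11).

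Genes of mitochondrial DNA transcription and replication showed no rise with LPS, with 2 of 8 lower in WT and 4 of 8 lower in labelled AMPKa1-/-, but 1 lower in WT and 1 higher and 1 lower in labelled AMPKa1-/- with centring. Tfb2m, the transcription factor that melts the mitochondrial promoters, changed by −0.57 and −0.58 with LPS and by 0.63 and 0.76 with Dex on LPS. Of 8 regulators of mitochondrial biogenesis, 3 rose and 2 fell with LPS in WT, and 2 rose and 4 fell in labelled AMPKa1-/- (4 and 2, and 3 and 2, with centring). Pprc1 rose (0.96 and 0.54), as did Esrra (0.61 and 0.58), and Myc fell (−1.25 and −1.89). Of the factors whose words were searched in the promoters, Nrf1 fell in both genotypes (−0.56 and −0.55). Gabpa (−0.60) and Yy1 (−0.52) fell in labelled AMPKa1-/- and were not called in WT (−0.50 and −0.30). The coactivator Ppargc1b had the largest change of this list with Dex on LPS, 1.84 in WT and 2.10 in labelled AMPKa1-/-.

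The RNAs that the mitoribosome holds and translates moved in opposite directions. The messages of mitochondrial DNA fell with LPS, with 10 of 12 tested lower and none higher in each genotype and medians of −0.92 and −0.95. With LPS + Dex against LPS, 11 of 12 rose in each genotype, with medians of 1.33 and 1.58. For mt-Cytb, which encodes a subunit of complex III, values in WT were 1253, 1406 and 1484 FPKM with vehicle, 474 and 505 FPKM with LPS and 1714, 2001 and 1482 FPKM with LPS + Dex. The LPS libraries lay far under both other groups. The 2 mitochondrial rRNAs showed the reverse. For mt-Rnr1, the small subunit rRNA, values in WT were 195, 208 and 229.8 FPKM with vehicle, 889 and 699 FPKM with LPS and 136, 137 and 188 FPKM with LPS + Dex. In the labelled AMPKa1-/- cells they were 305, 286 and 227 FPKM, 1871, 1238 and 884 FPKM and 290.0, 264 and 364 FPKM. Both rRNAs rose with LPS and fell with Dex on LPS in each genotype. With Dex alone, mt-Rnr2 rose in WT (log2 fold change 0.92, adjusted p = 0.0156 by limma) and labelled AMPKa1-/- (1.06, adjusted p = 0.0059). There mt-Rnr1 did not pass the test in either genotype (0.49 and 0.72). How rRNA was removed or selected against in the libraries is not given in the sources used here.

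Compared with the nuclear genes of complex I, the first enzyme of the respiratory chain, a smaller share of the mitoribosomal genes rose with Dex on LPS. Of 36 complex I genes, 28 rose and none fell in each genotype, with medians of 0.71 and 0.60, whereas 16 and 14 of the 77 members and 16.6% and 19.3% of all genes rose. Of 77 tested genes of the cytosolic ribosome, 53 fell with LPS in WT and 37 (a share near that of all genes) in labelled AMPKa1-/-, with none higher and medians of −0.61 and −0.38, where 35.8% and 44.1% of all genes fell. With libraries centred on 1 median, 27 and 9 fell and none rose, against falls in 29.5% and 30.9% of all genes. With Dex alone, 13 complex I genes fell in WT and 7 rose in labelled AMPKa1-/-, while 3 cytosolic ribosomal genes fell in WT and 17 rose in labelled AMPKa1-/-, where 14.9% of all genes fell in WT and 11.9% rose in labelled AMPKa1-/-. Of 12 proliferation genes, 10 fell with LPS in each genotype. Mki67, a marker of cycling cells, rose in both (1.79 and 1.09), and Mcm3, of the replicative helicase, rose in WT (0.37) and did not pass the test in labelled AMPKa1-/- (−0.10). These counts are descriptions of lists, and the differences between lists were not tested.

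**Figure D5:**
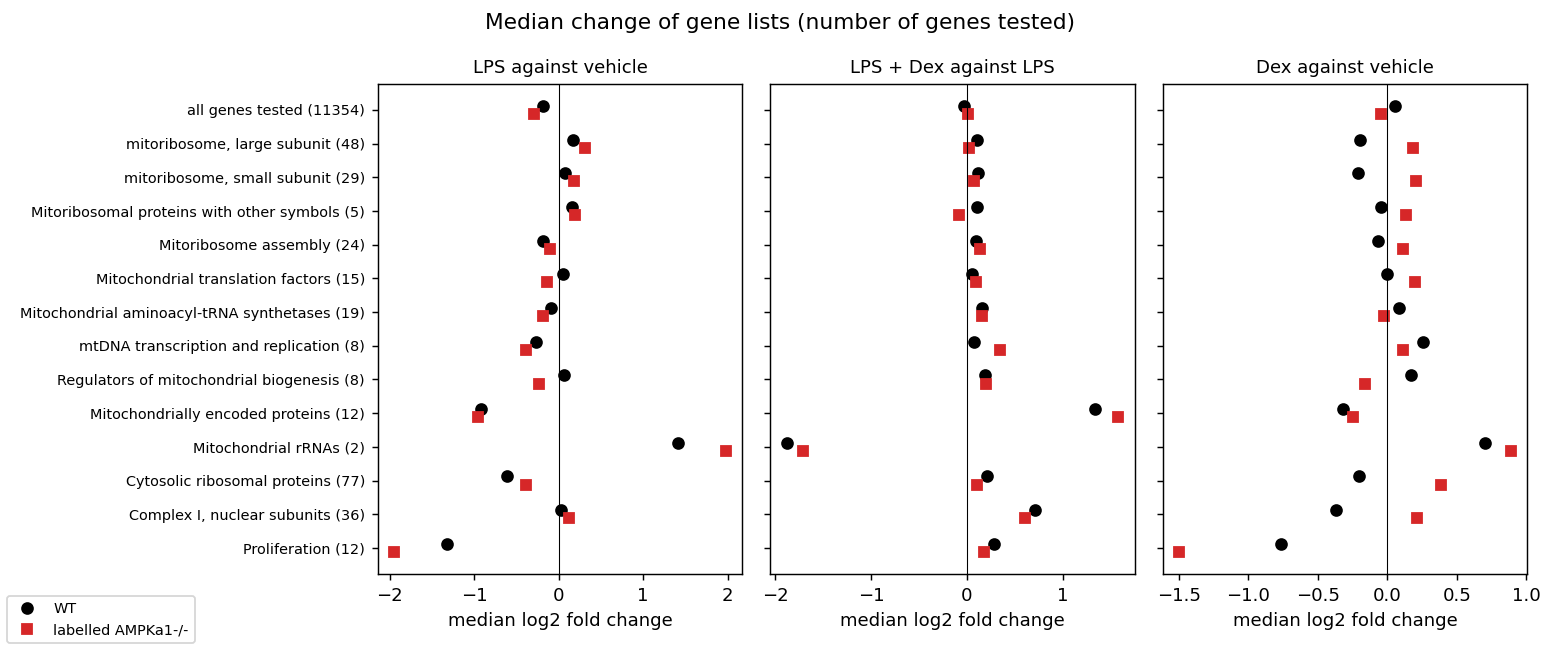
Median log2 fold change of each gene list (number of genes tested in brackets) for LPS against vehicle, LPS + Dex against LPS and Dex against vehicle, with black circles for WT and red squares for labelled AMPKa1-/-. The 2 subunits of the mitoribosome lay close together in every panel, while mitochondrially encoded messages and rRNAs lay on opposite sides of 0 with LPS and with Dex on LPS.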

How the data were processed

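RNA from 35 BMDM libraries was sequenced, and the authors deposited 1 table per library with an FPKM value for each of 47069 Ensembl identifiers. The submitters' processing notes name Bowtie2 2.2.3, TopHat2 2.0.12, HTSeq 0.6.1, DESeq2 and GRCm38 (mm10) without their roles. FPKM is relative to the library's total, so a few very abundant genes lower all others. The steps between low values gave 15837203 to 31955298 fragments per library, but only 55.3% to 63.9% of values under 10 fragments came out whole within 0.001, so counts were not rebuilt and no count test was run.

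The test was limma (3.58.1, run in R 4.3.3) with a pseudocount of 1 on the log2 scale. All 12 groups entered 1 fit with trended empirical Bayes variances, for the 11354 genes whose mean over the 35 libraries was 1 FPKM or more. Tests were 2-sided, with Benjamini-Hochberg adjustment over all genes and a threshold of 0.05. Fold changes are on the log2(FPKM + 1) scale and understate those of low genes. Gene positions, exon lengths and strands came from GENCODE M21 (GRCm38) and promoters from RefSeq (GRCm38.p6). Named genes were, in each comparison of treatments, up to 3 called members with the largest rise and up to 3 with the largest fall, the 3 most and 3 least abundant members, Mrps30, Mrps18a, Mrps36, Prkaa1 and up to 3 called genes of each other list. Other genes were named after their values were seen. The members and lists were chosen with earlier results of these data known. The Dex comparison between genotypes, its difference and the removal of a trend on exon length (lowess, span 0.3) were added after the data were seen. Alternatives were a pseudocount of 0.1, no filter on low values, centring, quantile normalization, the compared groups alone, a replicate block and leaving out each library. Groups share replicate numbers, so deviations of same-numbered libraries from their group means were correlated over genes. All 3 pairs were over 0.1 in labelled AMPKa1-/- for LPS, LPS + Dex or Dex against vehicle and LPS + Dex against LPS (lowest r 0.124). The numbers thus behaved there as a pairing in the data, with no label behind it. The main fit used no block, so the SEs and p-values given above leave this pairing out. The block was run as an alternative only. In the DAMPs comparisons and in WT at least 1 pair was at or under 0.1, or fewer than 3 pairs existed. Over all groups the median r was 0.28 in WT and 0.22 in labelled AMPKa1-/- for the same number, and −0.10 and −0.09 for different numbers, which deviations from a group mean push below 0.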

Additional observations from a re-analysis of the deposited data

How the results depend on the processing

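In both genotypes under LPS alone, and in labelled AMPKa1-/- under Dex on LPS, the count of called members stayed within 1.5 times the reported one under each alternative, although its split between rises and falls moved with scaling. In fits of the compared groups alone, the count was 6 for LPS + Dex against LPS in WT, and for DAMPs + Dex against DAMPs it was 0 in WT and 2 in labelled AMPKa1-/-. Shares of all genes in those fits are not given here. The DAMPs + Dex counts were 2 in each genotype with libraries centred on 1 median and 3 in each with quantile normalization. With the trend on exon length removed, the count was 41 for LPS + Dex against vehicle in WT and 20 for labelled AMPKa1-/- against WT with Dex, and Mrpl48 in labelled AMPKa1-/- with LPS + Dex against vehicle changed sign, from −0.33 to 0.0407. Quantile normalization took the large minus small difference for LPS in labelled AMPKa1-/- to 0.0934. The cause of these changes was not tested.

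Leaving out each library in turn gave, for WT and labelled AMPKa1-/- respectively, 25 to 31 and 32 to 38 calls for LPS, 14 to 27 and 18 to 23 for LPS + Dex against LPS, 22 to 27 and 26 to 31 for LPS + Dex against vehicle, 7 to 16 and 8 to 14 for Dex, and 2 to 9 and 3 to 5 for DAMPs + Dex against DAMPs. The DAMPs + Dex extremes in WT were without DAMPs + Dex replicate 2 and without DAMPs replicate 3. For labelled AMPKa1-/- against WT the range was 2 to 39 with Dex and 0 to 1 with LPS + Dex, the 1 call arising without WT LPS + Dex replicate 3. The large minus small difference ran from 0.0363 to 0.155 and from 0.0845 to 0.222 for LPS, and from −0.0985 to 0.0559 and from −0.0869 to −0.0184 for LPS + Dex against LPS. Where 1 WT LPS library was left out, the other was assumed to vary like the other groups. Shares of all genes without each library are not given here, so these ranges do not set the members apart from other genes.

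With the replicate number as a block, 21 members rose and 12 fell with LPS in WT and 31 rose and 9 fell in labelled AMPKa1-/-, 20 and 8 and 17 and 12 changed with LPS + Dex against LPS, and 1 and 17 and 13 and 1 with Dex. The block moved no count of called members by over 1.5 times. Shares of all genes with the block are not given here. Of the calls of named members it ended that of Mrps6 for LPS + Dex against LPS in WT (adjusted p = 0.0539 by limma, change −0.71) and no other. How far depth limits the calls of low members was not measured.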
